A study of Arabidopsis thaliana with 21 samples.

Results

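In root tips of Arabidopsis thaliana, 7 genes were lower after a 20 min treatment with the auxin indole-3-acetic acid (IAA) and were followed here through the other treatments and lines of the same study. They are AT1G05650, AT1G05660, AT2G43890, AT2G47440, AT5G58530, AT1G61840 and AT3G15115, 7 of the 27586 loci in the transcript tables. The genes were chosen by their lower read counts with IAA than with mock or with the auxin antagonist PEO-IAA in an earlier test of the same libraries. The IAA, PEO-IAA and mock values are therefore given as a description with no test, and the tests are those of the lines that express AXR3-1.

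All plants were 5 days old, each library came from 50 root tips of 1 to 2 mm, and each of the 7 groups had 3 libraries that the labels call biological replicates. In the chemical experiment, Col-0 wild type received IAA at 10 nM, PEO-IAA at 10 µM, or ethanol as mock, each for 20 min. In the heat experiment, HS::AXR3-1, a line with the stabilised AXR3-1 protein behind a heat shock promoter, and Col-0 were both warmed to 37 °C for 40 min, with 80 min of recovery before sampling. In the estradiol experiment, XVE>>AXR3-1 and Col-0 both received 5 µM estradiol for 2 h; this line carries AXR3-1 with a red fluorescent tag behind an estradiol-switched g1090 promoter. The transgenes were thus driven by promoters of broad activity and not by the promoter of AXR3, each line stands for 1 construct, and no library of an uninduced line was analysed here. A library pooled all cell types of the tip, so a change in RNA per cell and a change in the number of cells of a type cannot be told apart.

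Auxin binds a receptor of the TIR1/AFB family together with an Aux/IAA repressor, the repressor is broken down, and auxin response factors are then free to act on their target genes. PEO-IAA occupies the auxin pocket of these receptors without recruiting the repressor, and AXR3-1 is a form of the repressor AXR3 (IAA17) that escapes breakdown, so both hold the nuclear response back. The genes best known in this response are raised by auxin within minutes, and less is known of those that fall as quickly. Of the 7 genes, AT1G05650, AT1G05660 and AT2G43890 are annotated as pectin lyase-like proteins, the superfamily that holds the plant polygalacturonases, which cut the pectin backbone of the cell wall. AT2G47440 is a tetratricopeptide repeat (TPR)-like protein, a fold that binds other proteins. AT5G58530 belongs to the glutaredoxin family, small thiol oxidoreductases. AT1G61840 carries cysteine- and histidine-rich C1 domains, and AT3G15115 is annotated as a serine/arginine repetitive matrix protein. AT1G05650 and AT1G05660 lie next to each other in the gene order and are each other's closest match in the annotation, and AT1G05650 is also the closest match of AT2G43890.

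The libraries held between 17.45 and 23.88 M reads as estimated by Salmon, and levels are given in CPM, read counts scaled to library size by the TMM method. All 7 genes passed the filter on low counts, which left 19809 genes. Differences were tested with edgeR's quasi-likelihood test in 1 fit over the 21 libraries, and a gene was called where the Benjamini-Hochberg adjusted p over all 19809 genes was under 0.05. In this fit the median log2 change of all genes lay between -0.015 and 0.023 in every comparison. The estimated reads of the neighbours AT1G05650 and AT1G05660 were whole numbers in all 21 libraries within 0.001 of a read, while those of AT2G43890 were whole in 18 libraries, and whole numbers are what Salmon gives where reads are not divided with other transcripts.

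The labels were first checked against the transgene and the heat treatment. AXR3 reads, native gene and transgene together, stood at 734, 939 and 1180 CPM in XVE>>AXR3-1 and at 175, 146 and 146 CPM in estradiol-treated Col-0, a log2 change of 2.61 ± 0.39 (SE; edgeR adjusted p = 0.000971). They stood at 181, 298 and 861 CPM in HS::AXR3-1 and at 93.5, 149 and 143 CPM in heated Col-0, a log2 change of 1.80 ± 0.38 (SE) that was not called (edgeR adjusted p = 0.199). Without replicate 1 of that line it was 2.17 ± 0.30 (SE) and was called (adjusted p = 0.0132). The heat-driven libraries thus differed widely in AXR3. The library labelled HS::AXR3-1 replicate 1, lowest in AXR3 of its group, went against its heat label. The summed level of 5 heat shock genes (HSP101, HSP70-4, HSP18.2, HSP17.4 and HSFA2) was 107 CPM in that library, 3110 and 9280 CPM in the other HS::AXR3-1 libraries, and 4360, 4120 and 5600 CPM in heated Col-0. HSP18.2 alone was at 18.0, 1960 and 4820 CPM in HS::AXR3-1 and at 3160, 2460 and 3070 CPM in heated Col-0. The part of this library's low heat response in the results below was not tested, and the results on the 7 genes that rest on the library are given with and without it.

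In the chemical experiment every one of the 7 genes was lower in all 3 IAA libraries than in all 3 mock and all 3 PEO-IAA libraries, which is how they came to be chosen. Over all genes, 2.99% had all IAA libraries below all mock libraries and 4.14% had all IAA libraries below all PEO-IAA libraries. The median log2 change of the 7 was -1.14 between IAA and mock, with a range of -1.80 to -0.60, and -1.60 between IAA and PEO-IAA, with a range of -2.94 to -0.47. Against mock 4 of the 7 were called (AT3G15115, AT1G05660, AT2G47440 and AT5G58530), and these were the only genes called lower (0.0202% of all genes). Against PEO-IAA 6 of the 7 were called, all but AT5G58530 (0.131% of all genes). Without any 1 library of the IAA and mock groups 0 to 2 of the 7 were called against mock (0 without IAA replicate 1, IAA replicate 2 or mock replicate 3), and without any 1 of the IAA and PEO-IAA groups 3 to 5 against PEO-IAA, the fewest without IAA replicate 3 or PEO-IAA replicate 1. Since these contrasts chose the members, nothing is read from these counts. AT2G47440 lay just inside the threshold against mock, at 23.9 ± 1.81 CPM with IAA and 39.2 ± 3.5 CPM with mock (SD, n = 3), and AT1G01830, an ARM repeat protein, just outside, at 20.3 ± 2.80 CPM with IAA and 31.4 ± 4.01 CPM with mock. Against PEO-IAA the RING finger gene AT5G49665 lay just inside, at 20.6 ± 3.81 CPM with IAA and 36.8 ± 4.10 CPM with PEO-IAA, and the expansin EXPB1 just outside, at 26.1 ± 3.96 CPM with IAA and 43.7 ± 2.70 CPM with PEO-IAA.

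Among the pectin lyase-like genes, AT1G05650 had 11.3, 8.84 and 6.72 CPM with IAA, 59.2, 22.2 and 39.4 CPM with PEO-IAA, and 21, 17.8 and 29.6 CPM with mock. Its neighbour AT1G05660 had 30.7, 31.8 and 34.4 CPM with IAA, 80.7, 60.5 and 82.8 CPM with PEO-IAA, and 49.9, 62.9 and 90.0 CPM with mock. AT2G43890 was the sparsest of this group, with 2.82, 2.29 and 0.788 CPM under IAA, 22.5, 7.34 and 15.6 CPM under PEO-IAA, and 6.83, 5.45 and 8.28 CPM under mock. In all of them the IAA libraries were apart from the rest, while the PEO-IAA and mock libraries overlapped. For AT1G05650 and AT2G43890 the PEO-IAA libraries spread the widest, with replicate 1 the highest, and PEO-IAA replicate 2 was the lowest of its group for all 3 genes.

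AT2G47440, the TPR-like gene, had 25.9, 23.2 and 22.5 CPM with IAA, 53.7, 45.0 and 43.0 CPM with PEO-IAA, and 43.0, 38.7 and 36.1 CPM with mock. The glutaredoxin gene AT5G58530 had 12.8, 12.2 and 11.9 CPM with IAA, 17.3, 15.3 and 18.3 CPM with PEO-IAA, and 19.1, 17.5 and 19.2 CPM with mock. These libraries lay close together within each group, and AT5G58530 was the only one of the 7 whose mean was lower with PEO-IAA than with mock. AT1G61840, the C1 domain gene, had 0.583, 3.19 and 0.463 CPM with IAA, 11.9, 7.79 and 7.86 CPM with PEO-IAA, and 3.63, 4.64 and 6.17 CPM with mock. Its IAA libraries held as few as 10 reads, and the log2 change between IAA and mock of -1.75 became -3.18 without IAA replicate 2. AT3G15115 had 3.98, 4.85 and 6.67 CPM with IAA, 15, 13.5 and 18.5 CPM with PEO-IAA, and 9.63, 10.0 and 14.6 CPM with mock.

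**Figure D1:**
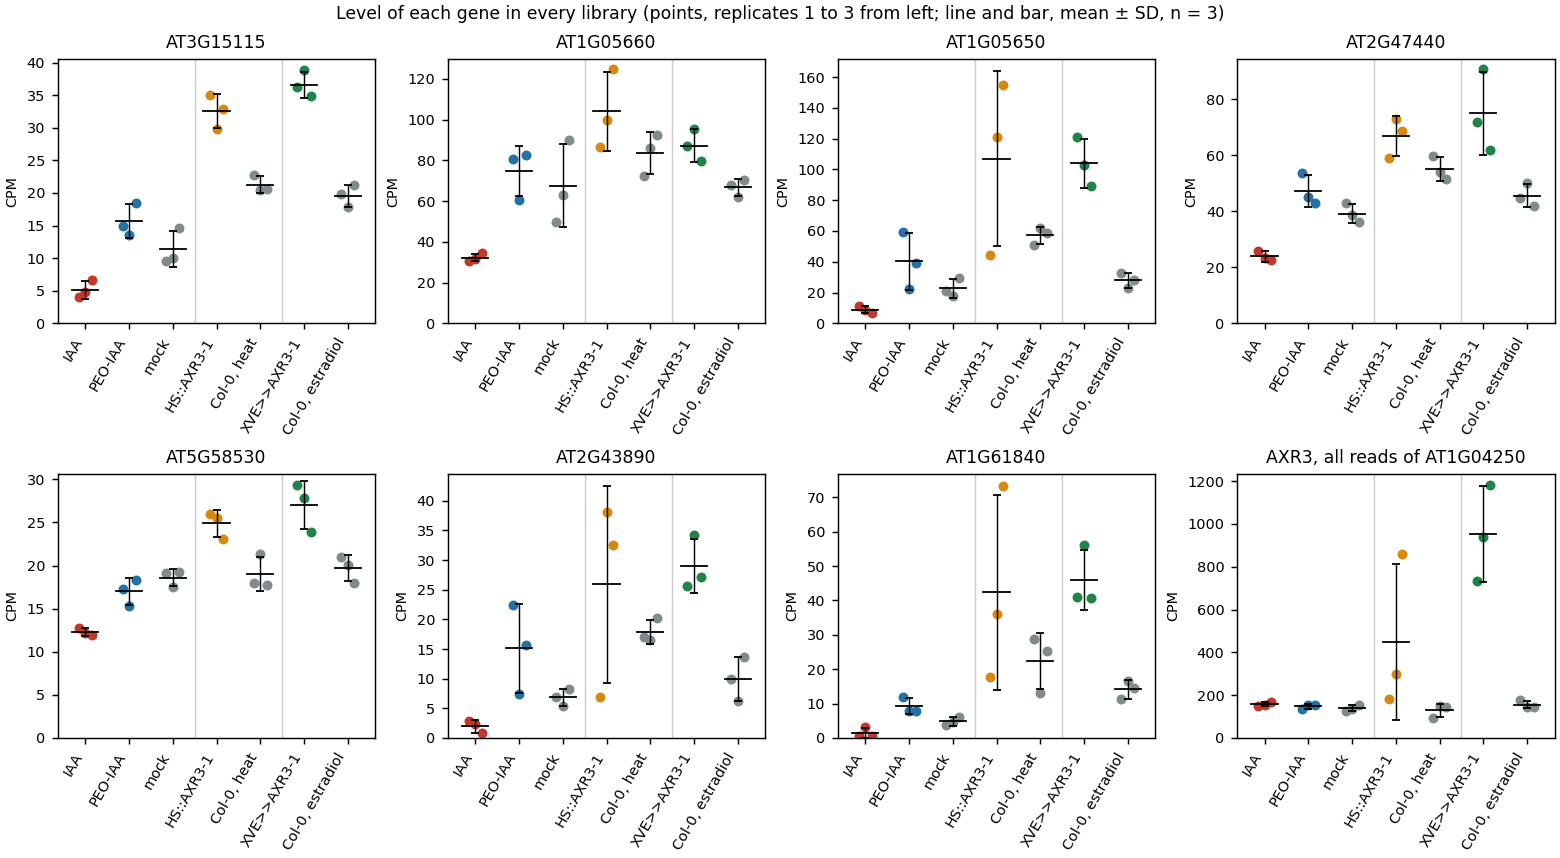
Level of each of the 7 genes and of AXR3 in CPM (vertical axes) in the 7 groups (horizontal axes). Points are libraries with replicates 1 to 3 from left to right, and the line and bar are the mean and SD of 3 libraries; the IAA libraries are the lowest of each panel but that of AXR3, and the XVE>>AXR3-1 libraries lie above their Col-0 libraries in all panels.

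With the antagonist, most but not all of the genes lay above mock. PEO-IAA against mock gave log2 changes above 0 for 6 of the 7 genes, against 51.1% of all genes, with a median of 0.46 for the 7. These values share libraries with the contrasts that chose the genes and carry no test. The largest were those of AT2G43890 at 1.14, AT1G61840 at 0.93 and AT1G05650 at 0.82. AT3G15115 followed at 0.46, AT2G47440 at 0.27 and AT1G05660 at 0.14, while AT5G58530 was at -0.13. For AT2G47440 and AT1G61840 the PEO-IAA libraries did not overlap the mock libraries, a pattern found upward in 2.37% of all genes, although for AT2G47440 the lowest PEO-IAA library (replicate 3) and the highest mock library (replicate 1) both round to 43.0 CPM. Setting same-numbered libraries side by side, all 3 differences were above 0 for AT3G15115, AT1G05650, AT2G47440, AT2G43890 and AT1G61840, 1 of 3 for AT1G05660 and 0 of 3 for AT5G58530. The sign of AT1G05660 turned to -0.03 without mock replicate 1. Over the whole table edgeR called 0 genes higher with PEO-IAA than with mock (0.0%), while 152 were higher and 153 lower by an unadjusted p below 0.05, and DESeq2 called 2 higher.

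The rule that chose the genes used no library of the estradiol-driven line or its Col-0 control. In these libraries all 7 genes stood higher in the line. The genes were still chosen with earlier results of these data known, so a choice free of these libraries is not established. The test is also not wholly apart from the rule, since the fit over 21 libraries takes its estimate of spread in part from the IAA, PEO-IAA and mock libraries. Every XVE>>AXR3-1 library lay above every estradiol-treated Col-0 library for 7 of the 7 genes, against 8.2% of all genes. The fit over 21 libraries called 4 of the 7 higher, against 1.46% of all genes: AT1G05650, AT2G47440, AT5G58530 and AT3G15115. Without the library labelled HS::AXR3-1 replicate 1, which is in neither group but bears on the shared estimate of spread, the scaling and the low-count filter (19988 genes tested), 6 of the 7 were called, against 1.84% of all genes, and AT1G05660 was the exception. The median log2 change of the 7 was 0.90, against -0.015 for all genes.

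Of the called genes AT1G05650 rose most, to 121, 103 and 89.1 CPM in XVE>>AXR3-1, against 32.7, 22.7 and 28.3 CPM in estradiol-treated Col-0. The lowest line library held more than the highest Col-0 library by a wide margin, and the log2 change was 1.90 ± 0.38 (SE; edgeR adjusted p = 0.00803). Its neighbour AT1G05660 had 86.9, 95.6 and 79.6 CPM in XVE>>AXR3-1 and 67.8, 62.0 and 70.4 CPM in estradiol-treated Col-0. These libraries did not overlap, but the log2 change of 0.39 ± 0.18 (SE) was not called (edgeR adjusted p = 0.475). AT2G43890 had 25.6, 34.2 and 27.2 CPM in XVE>>AXR3-1 and 9.91, 6.20 and 13.6 CPM in estradiol-treated Col-0, a log2 change of 1.55 ± 0.50 (SE). This change missed the threshold in the fit over 21 libraries (edgeR adjusted p = 0.145) and passed it without the library labelled HS::AXR3-1 replicate 1 (1.55 ± 0.38, adjusted p = 0.0305).

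AT2G47440 rose to 72.1, 91.0 and 62.1 CPM in XVE>>AXR3-1, against 44.8, 50.1 and 41.8 CPM in estradiol-treated Col-0 (log2 change 0.72 ± 0.14 SE, edgeR adjusted p = 0.0061). AT5G58530 rose to 29.3, 27.8 and 23.9 CPM in XVE>>AXR3-1, against 21, 20.1 and 18.0 CPM in estradiol-treated Col-0. Its change was the smallest of those called, with a log2 value of 0.45 ± 0.11 (SE; edgeR adjusted p = 0.031). AT1G61840 had 40.9, 56.0 and 40.8 CPM in XVE>>AXR3-1 and 11.2, 16.6 and 14.5 CPM in estradiol-treated Col-0. Its log2 change of 1.70 ± 0.51 (SE) missed the threshold (edgeR adjusted p = 0.0963) and passed it without the library labelled HS::AXR3-1 replicate 1 (1.71 ± 0.45, adjusted p = 0.0459). AT3G15115 rose to 36.2, 38.8 and 34.9 CPM in XVE>>AXR3-1, against 19.8, 17.8 and 21.2 CPM in estradiol-treated Col-0. The libraries of each group lay within a few CPM of each other, and the log2 change was 0.90 ± 0.17 (SE; edgeR adjusted p = 0.00668).

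Same-numbered libraries of the estradiol experiment deviated together, and with the replicate number as a block 5 of the 7 were called, against 4.18% of all genes; AT1G61840 joined the others (adjusted p = 0.0392) and AT2G43890 stayed just outside (adjusted p = 0.0589). DESeq2 called 6 of the 7, all but AT1G05660, against 2.33% of all genes. Leaving out estradiol-treated Col-0 replicate 2 moved the count most, with 106 genes called higher in all. Without that library AT2G47440 alone of the 7 kept its call. AT3G15115 and AT1G05650 moved to edgeR adjusted p values of 0.0505 and 0.059, with log2 changes of 0.84 and 1.77. AT5G58530 lost its call without any 1 of 5 of the 6 libraries of this experiment (adjusted p 0.0545 to 0.188), and also in a fit of the estradiol experiment alone, where it was at an adjusted p of 0.161 and AT2G47440 at 0.0693. In that fit AT2G43890 and AT1G61840 were called instead (edgeR adjusted p = 0.0299 and 0.00798), among 298 genes called higher in all.

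**Figure D2:**
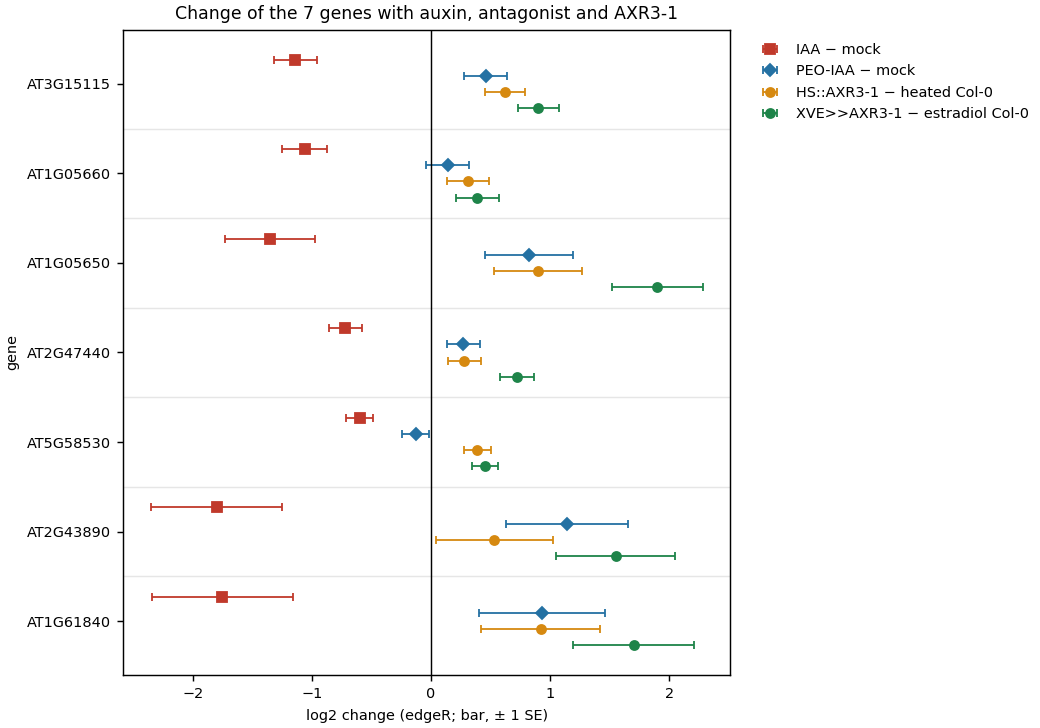
Log2 change of the 7 genes (horizontal axis) in 4 comparisons, as fitted by edgeR, with bars of 1 SE. The IAA changes lie below 0 for all genes, those of both AXR3-1 lines lie above 0, and those of PEO-IAA lie above 0 for all but AT5G58530 (-0.13); the IAA and PEO-IAA changes share mock libraries and include the contrast that chose the genes.

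In the heat-driven line the 7 genes were also all above 0, against 53.2% of all genes. The 7 had a median log2 change of 0.53 and a range of 0.28 to 0.92, but edgeR called 0 of them (0.0252% of all genes called higher). Across all genes, 5 were called higher and 0 lower in this line, while 518 were higher and 320 lower by an unadjusted p below 0.05, and DESeq2 also called 0 of the 7. With the replicate number as a block, 1 of the 7 was called, beside 63 genes called higher in all. It was AT3G15115 (log2 change 0.61 ± 0.10 SE, edgeR adjusted p = 0.0239). For AT3G15115 and AT5G58530 every HS::AXR3-1 library lay above every heated Col-0 library, against 3.33% of all genes. Without the library labelled HS::AXR3-1 replicate 1, both other line libraries lay above every heated Col-0 library for 7 of the 7 genes, against 7.86% of all genes. In that case edgeR again called 0 of the 7 (0.045% of all genes), and the log2 changes were 1.27 for AT1G05650, 0.43 for AT1G05660, 0.98 for AT2G43890, 0.36 for AT2G47440, 0.35 for AT5G58530, 1.29 for AT1G61840 and 0.56 for AT3G15115.

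Among the pectin lyase-like genes, AT1G05650 had 44.5, 121 and 155 CPM in HS::AXR3-1 and 51.1, 61.7 and 58.8 CPM in heated Col-0. The library labelled replicate 1 lay below all Col-0 libraries, the other line libraries lay far above them, and the log2 change was 0.90 ± 0.37 (SE; edgeR adjusted p = 1). AT2G43890 showed the same split, with 6.90, 38.1 and 32.6 CPM in HS::AXR3-1 and 17, 16.5 and 20.3 CPM in heated Col-0 (log2 change 0.53 ± 0.49 SE, adjusted p = 1). AT1G05660 had 86.6, 100 and 125 CPM in HS::AXR3-1 and 72.5, 86.1 and 92.6 CPM in heated Col-0. Its groups overlapped, and the log2 change was 0.31 ± 0.18 (SE; edgeR adjusted p = 1).

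AT1G61840 had 17.6, 36.0 and 73.2 CPM in HS::AXR3-1 and 28.8, 13.0 and 25.2 CPM in heated Col-0, a log2 change of 0.92 ± 0.50 (SE; edgeR adjusted p = 1). AT2G47440 had 59.0, 73.2 and 68.7 CPM in HS::AXR3-1 and 59.9, 54.0 and 51.7 CPM in heated Col-0, a log2 change of 0.28 ± 0.14 (SE; edgeR adjusted p = 1). In both genes the library labelled replicate 1 fell among the Col-0 libraries and the other line libraries lay above them. AT5G58530 had 26.0, 25.5 and 23.1 CPM in HS::AXR3-1 and 18.0, 21.3 and 17.7 CPM in heated Col-0 (log2 change 0.39 ± 0.11 SE, edgeR adjusted p = 0.61). AT3G15115 had 35.1, 29.8 and 32.9 CPM in HS::AXR3-1 and 22.8, 20.4 and 20.6 CPM in heated Col-0 (log2 change 0.62 ± 0.17 SE, edgeR adjusted p = 0.601). These last genes were as high in the library labelled replicate 1 as in the other line libraries, although that library held the fewest AXR3 and heat shock reads.

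**Figure D3:**
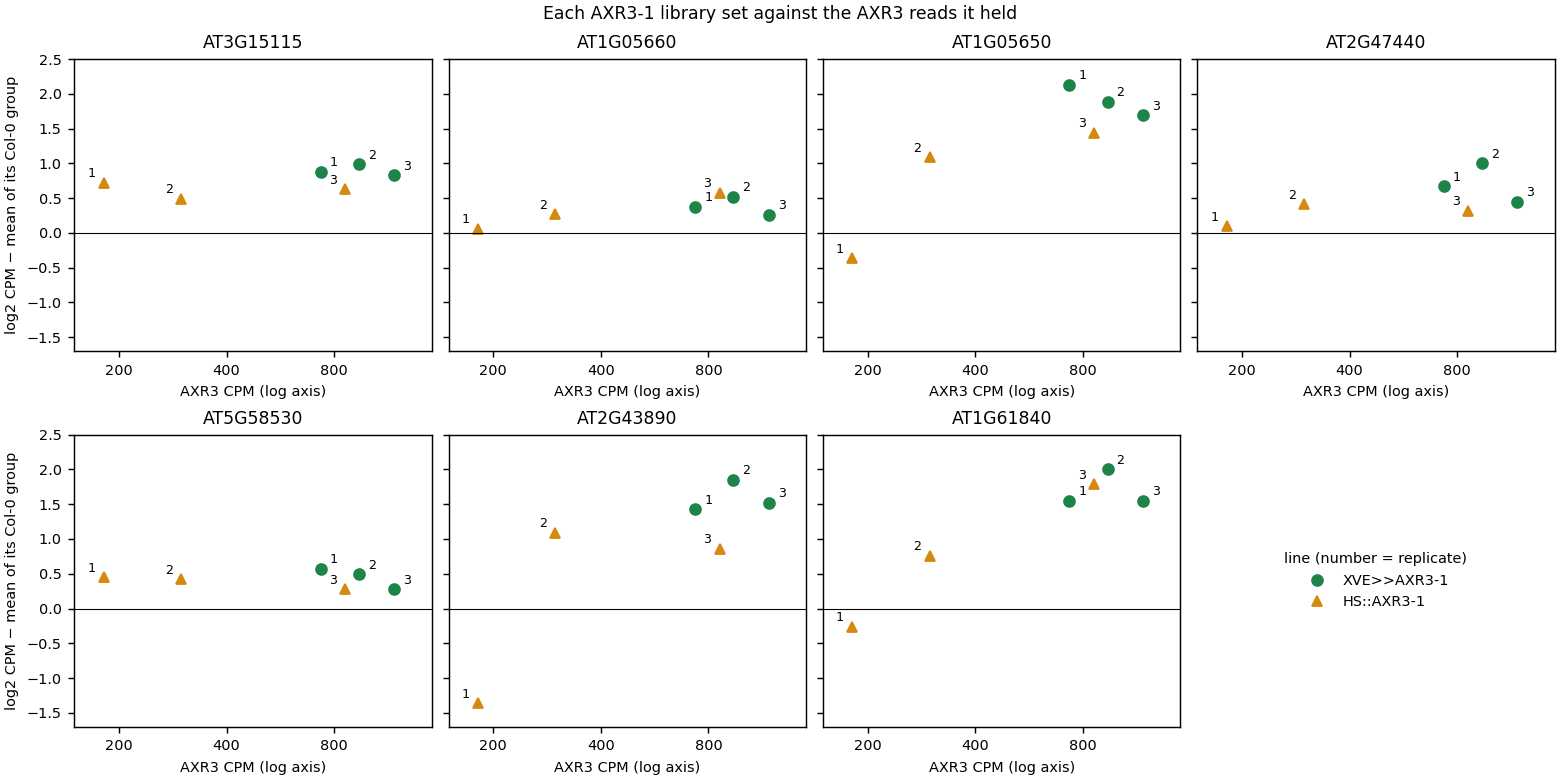
Log2 CPM of each gene in each AXR3-1 library minus the mean of the matching Col-0 group (vertical axes) against the AXR3 level of that library in CPM (horizontal axes, log scale). Circles are XVE>>AXR3-1 and triangles HS::AXR3-1, numbered by replicate; the library labelled HS::AXR3-1 replicate 1, at 181 CPM of AXR3, lies below 0 for AT1G05650, AT2G43890 and AT1G61840 (-0.36, -1.36 and -0.26), and above 0 for AT3G15115 and AT5G58530 (0.72 and 0.45).

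The mean of both line effects can be carried by 1 line alone, and a call of it does not show a change in both. It was called above 0 for 4 of the 7, against 1.57% of all genes: AT3G15115 at 0.76 ± 0.12 (SE; edgeR adjusted p = 0.00214), AT1G05650 at 1.40 ± 0.26 (0.00528), AT5G58530 at 0.42 ± 0.08 (0.00521) and AT2G47440 at 0.50 ± 0.10 (0.00675). AT1G61840 was at 1.31 ± 0.36 (adjusted p = 0.0559), AT2G43890 at 1.04 ± 0.35 (0.16) and AT1G05660 at 0.35 ± 0.13 (0.22). Without the library labelled HS::AXR3-1 replicate 1, 6 of the 7 were called, against 1.84% of all genes. AT1G61840 was then at 1.5 ± 0.33 (edgeR adjusted p = 0.0138) and AT2G43890 at 1.26 ± 0.28 (0.0146), and AT1G05660 stayed outside at 0.41 ± 0.13 (0.119).

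The effect in the heat-driven line minus that in the estradiol-driven line was below 0 for all 7 genes, between -1.02 for AT2G43890 and -0.07 for AT5G58530. Over all genes, 54.0% were above 0 in this difference. None of these differences was called (adjusted p = 1 for each, with 0.0151% of all genes called higher and 0.0101% lower), and their SE ran from 0.16 to 0.70. The lines were therefore not shown to differ, nor to act alike, at this precision. Without the library labelled HS::AXR3-1 replicate 1 the difference for AT2G43890 was -0.58 ± 0.56 and that for AT1G05650 -0.63 ± 0.42, against -1.0 ± 0.52 with it, and AT1G05660 turned to 0.03 ± 0.26 (SE, edgeR adjusted p = 1 for each).

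**Figure D4:**
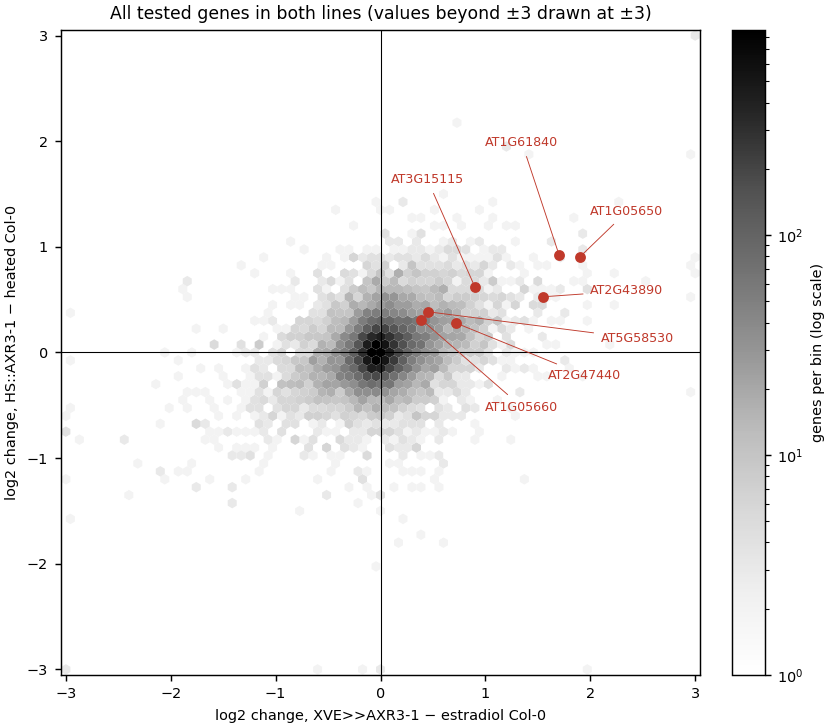
Log2 change of all 19809 tested genes in XVE>>AXR3-1 against estradiol-treated Col-0 (horizontal axis) and in HS::AXR3-1 against heated Col-0 (vertical axis), with the number of genes per bin in grey on a log scale. The 7 genes, in red, all lie in the quadrant where both changes are above 0, with medians of 0.90 and 0.53.

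Across the 7 groups the IAA group was the lowest for all genes, and its libraries did not overlap those of the next group. The XVE>>AXR3-1 mean was the highest for AT3G15115 (36.6 ± 2.01 CPM), AT2G47440 (75.0 ± 14.7 CPM), AT5G58530 (27 ± 2.77 CPM), AT2G43890 (29.0 ± 4.56 CPM) and AT1G61840 (45.9 ± 8.75 CPM; SD, n = 3), and the HS::AXR3-1 mean was the highest for AT1G05650 (107 ± 56.8 CPM) and AT1G05660 (104 ± 19.3 CPM). In every gene the libraries of these top groups overlapped each other. Once the library labelled HS::AXR3-1 replicate 1 was left out, the HS::AXR3-1 mean was the highest also for AT2G43890 (35.3 CPM) and AT1G61840 (54.6 CPM), and it was 138 CPM for AT1G05650 and 113 CPM for AT1G05660 (n = 2 each). The 2 lines then no longer overlapped for AT3G15115, higher in XVE>>AXR3-1, and for AT1G05660 and AT1G05650, higher in HS::AXR3-1. For AT1G05650 the nearest libraries of the 2 lines both round to 121 CPM. The share of all genes with this pattern was not taken and the lines come from different experiments, so nothing is read from it. The Col-0 groups differed between experiments as well: AT1G61840 averaged 22.4 ± 8.26 CPM in heated, 14.1 ± 2.71 CPM in estradiol-treated and 4.81 ± 1.28 CPM in mock-treated Col-0. Treatment, time and experiment cannot be told apart across these Col-0 groups.

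Levels of different genes are compared per transcript length, in the TPM values of the deposited files, which scale reads by transcript length and library total. AT1G05650 was at 6.27 ± 1.64 TPM and AT1G05660 at 22.2 ± 1.03 TPM with IAA (SD, n = 3), so the neighbours stood well apart. In XVE>>AXR3-1, AT1G05650 was at 69.7 ± 9.11 TPM and AT1G05660 at 57.1 ± 5.30 TPM, and in estradiol-treated Col-0 they were at 18.9 ± 2.54 and 44.3 ± 2.64 TPM. Within a library, AT1G05650 stood above its neighbour in all 3 XVE>>AXR3-1 libraries (78.8 and 55, 69.6 and 63.1, 60.6 and 53.1 TPM) and below it in all 3 IAA and all 3 estradiol-treated Col-0 libraries, although the ranges of the pair over the XVE>>AXR3-1 libraries overlapped. AT1G05650 also stood above its neighbour in HS::AXR3-1 replicates 2 and 3 (82.5 and 67.4, 106 and 84.1 TPM). In the library labelled HS::AXR3-1 replicate 1 it stood below (29.1 and 54.9 TPM). AT2G43890, the third pectin lyase-like gene, was at 20.4 ± 3.91 TPM in XVE>>AXR3-1 and at 7.21 ± 2.87 TPM in estradiol-treated Col-0.

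Calls among the relatives of the 7 genes were few outside the C1 domain genes, and a lack of calls does not show a lack of change. Of the 100 other loci annotated as pectin lyase-like, 47 were tested, and in XVE>>AXR3-1 against Col-0 0 were called higher and 1 lower, beside 1.46% and 1.34% of all genes called in these directions. The gene called lower was AT5G48900 (log2 change -1.53 ± 0.23 SE, edgeR adjusted p = 0.00107), and the median of the 47 was -0.13. Of 7 polygalacturonases with a described role (PGX1, PGX2, PGX3, ADPG1, ADPG2, QRT2 and PGLR), 3 were tested and 0 called in either line. Among 251 tested TPR-like genes 1 was called higher in XVE>>AXR3-1 and 0 lower, and among 16 tested glutaredoxin genes 1 was called higher and 0 lower. These were AT3G62570 (1.20 ± 0.18 SE, edgeR adjusted p = 0.0011), the closest match of AT2G47440, and the glutaredoxin AT3G57070 (1.01 ± 0.17 SE, adjusted p = 0.00219). The C1 domain genes moved in both directions, with 6 of 111 called higher and 6 lower, among them AT3G07000 (-1.69 ± 0.26 SE, edgeR adjusted p = 0.00128), AT4G10370 (-1.64 ± 0.27, 0.00224) and AT2G44370 (1.15 ± 0.22, 0.00581). Of these 111, 74 were above 0 in XVE>>AXR3-1, with a median log2 change of 0.20, beside 46.1% of all genes above 0. In HS::AXR3-1 54 of them were above 0, with a median of -0.02, beside 53.2% of all genes. All 3 other genes annotated as serine/arginine repetitive matrix proteins were tested, and 0 were called. In HS::AXR3-1 against heated Col-0, 0 genes of these families were called. That count was again 0 without the library labelled HS::AXR3-1 replicate 1, while in XVE>>AXR3-1 12 C1 domain genes were called higher and 7 lower, and 2 TPR-like genes higher and 1 lower.

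The closest matches in the annotation split. AT3G62570 was at 42.7 ± 8.57 CPM in XVE>>AXR3-1 and 18.6 ± 3.23 CPM in estradiol-treated Col-0 (SD, n = 3). AT1G53180, the closest match of AT3G15115, was at 82.7 ± 14.5 CPM in XVE>>AXR3-1 and 46.6 ± 8.03 CPM in estradiol-treated Col-0 (log2 change 0.83 ± 0.18 SE, edgeR adjusted p = 0.0143). Both were called higher in XVE>>AXR3-1, as were their relatives among the 7. In HS::AXR3-1 against heated Col-0 neither was called, with AT3G62570 at 0.65 ± 0.18 and AT1G53180 at 0.35 ± 0.18 (SE). Between IAA and mock neither was called either, at -0.69 ± 0.18 and -0.21 ± 0.18 (SE). AT5G13810, the closest match of AT5G58530, was at 31.8 ± 6.30 CPM in XVE>>AXR3-1 and 31.6 ± 2.48 CPM in estradiol-treated Col-0 (log2 change 0.01 ± 0.17 SE, edgeR adjusted p = 1). AT2G40050, the closest match of AT1G61840, did not pass the filter on low counts.

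The genes most alike in pattern were sought over the 21 libraries by Pearson's r of log2 CPM, each gene centred on its mean within each of the 3 experiments. As the members were chosen on 9 of these libraries and the libraries share their preparation, these values are a description. AT1G05650 was most like EXPA17, an alpha-expansin (r = 0.97), and YUC8, an enzyme of auxin synthesis (r = 0.95). AT2G43890 was most like AT1G05650 (r = 0.93) and EXPA17 (r = 0.90). AT1G05660 was most like AT2G43880 (r = 0.91), the pectin lyase-like gene next to AT2G43890, and AT3G15115 (r = 0.90), which in turn was most like MEE16, a RING/U-box protein (r = 0.90). AT2G47440 went with the homeobox gene HB-3 (r = 0.93) and with AT3G62570 (r = 0.92). AT1G61840 went with another C1 domain gene, AT2G02630 (r = 0.93), and with AT5G49665 (r = 0.91), and AT5G58530 with MYB86 (r = 0.87) and AT2G43340 (r = 0.86). Among the 7 genes themselves, over the 12 libraries of the heat and estradiol experiments, which the choosing rule did not use, the 21 pairs had r between 0.40 and 0.89 with a median of 0.79. The lowest was that of AT5G58530 with AT2G43890 and the highest that of AT1G05650 with AT2G43890. Over the 11 libraries other than that labelled HS::AXR3-1 replicate 1, the pairs had r between 0.68 and 0.97 with a median of 0.85; the lowest was that of AT5G58530 with AT1G61840 and the highest that of AT3G15115 with AT1G05650. The closest genes named here were then also the closest for 6 of the 7, and for AT5G58530 they gave way to AT3G21680 (r = 0.89) and AT5G51930 (r = 0.88), with MYB86 at 0.88 and AT2G43340 at 0.86.

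In all, 27 genes were called lower with IAA than with mock or PEO-IAA, and 20 of them were not among the 7. All 20 were called against PEO-IAA and 0 against mock. Of these 20, 7 were called higher and 0 lower in XVE>>AXR3-1 against Col-0, beside 1.46% and 1.34% of all genes. In that line 16 of the 20 were above 0, against 46.1% of all genes, and their median log2 change was 0.54. In HS::AXR3-1 0 were called and 20 were above 0, against 53.2% of all genes, and the median of the 20 was 0.32. Without the library labelled HS::AXR3-1 replicate 1, 9 were called higher in XVE>>AXR3-1 (1.84% of all genes) and 1 in HS::AXR3-1 (0.045% of all genes). In HS::AXR3-1 19 were then above 0. EXPA17, YUC8, AT2G43880 and AT3G62570 were among the 20, as was the neighbouring pair AT4G34800 and AT4G34810 of the SAUR family, with log2 changes of 1.56 and 1.32 in XVE>>AXR3-1 and 0.85 and 0.67 in HS::AXR3-1. UGT75B2, a glucosyl transferase, was at -0.07 in XVE>>AXR3-1 and 0.03 in HS::AXR3-1. Not every gene called lower with IAA than with PEO-IAA thus had an estimate above 0 in XVE>>AXR3-1.

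Other gene groups moved in the same libraries. Of 9 genes known to be raised quickly by auxin, 7 were called higher with IAA than with mock (0.146% of all genes), and in XVE>>AXR3-1 4 were called lower and 0 higher (beside 1.34% and 1.46% of all genes called in these directions, which holds for the lists below as well), among them IAA1 (-2.44 ± 0.32 SE, edgeR adjusted p = 0.000434) and IAA2 (-1.83 ± 0.19, 8.56e-05); in HS::AXR3-1 0 were called. Of 8 root hair genes, 5 were called lower in XVE>>AXR3-1, where their summed level was 136 to 366 CPM, against 411 to 567 CPM in estradiol-treated Col-0, and none of the 8 was above 0. RSL4, a regulator of root hair growth, was at -2.33 ± 0.40 (SE; edgeR adjusted p = 0.00338). All 10 touch and wounding genes were above 0 in XVE>>AXR3-1, with a summed level of 252 to 291 CPM, against 115 to 151 CPM in estradiol-treated Col-0, but 1 was called, WRKY33 (1.47 ± 0.28 SE, adjusted p = 0.00596). The same 10 genes summed to 749 to 1110 CPM with IAA, 408 to 686 CPM with PEO-IAA and 347 to 466 CPM with mock. In HS::AXR3-1 against heated Col-0, 5 of the 10 were above 0, with a median log2 change of -0.02. Of 4 root cap genes, BRN1 was called higher (0.75 ± 0.18 SE, adjusted p = 0.0309) and BRN2 lower (-1.10 ± 0.22, 0.00866) in XVE>>AXR3-1. Among 7 endodermis, 6 xylem, 5 cell division, 3 green tissue and 5 heat shock genes tested, 0 were called in either line. The part of these groups in the changes of the 7 genes was not tested.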

How the data were processed

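Root tip RNA of 21 libraries, 3 in each of 7 groups, was sequenced; groups and replicate numbers come from the labels. The deposited files hold Salmon output per transcript: expected counts of reads (not always whole), TPM and lengths, per the file headers. They were made with Salmon 1.3.0 and TAIR10, per the submitters' processing notes; no source used here states the layout, strand option or bias correction, so overlapping and antisense genes are uncertain. The deposited TPM values were summed per locus and used only to compare genes.

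Reads were added up over the transcripts of a locus and the sums rounded, which shifted library totals by at most 2.3e-05%. Gene and product names came from RefSeq's table of TAIR10.1, in which 27389 of 27586 loci were found; since the builds differ, no coordinates or sequences were taken. Counts were fitted with edgeR 4.0.16 in R 4.3.3 (TMM scaling, default low-count filter, a coefficient per group, 14 residual degrees of freedom). The SE is the log2 change divided by the root of the F statistic. Families are loci with the same product name. Between replicates the mean chi-square per gene was 20.9 to 129, so none was a duplicate.

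Same-numbered libraries correlated in their deviations from the group means by 0.52 to 0.78 in the chemical and 0.49 to 0.70 in the estradiol experiment. The correlation was 0.09 to 0.45 in the heat experiment. By these values the libraries of the chemical and estradiol experiments looked paired. In the heat experiment replicates 2 and 3 correlated more with their own number (0.45 and 0.28) than with another (at most -0.02 and 0.18). Replicate 1 did not (0.09 and 0.23). The main fit held no replicate term even so, and the pairing entered only as the replicate block among the alternatives. Alternatives were DESeq2 1.42.0, median-of-ratios scaling, no filter, a replicate block, each experiment alone and leaving out each library; leaving the library labelled HS::AXR3-1 replicate 1 out of every comparison, mean and correlation was added after seeing the data. The members, gene lists and tests were chosen with earlier results of these data known. Named genes are the 7, AXR3, the closest matches, the genes next to each threshold, 2 genes most alike in pattern per member (mean CPM of at least 5, prior count 2) and up to 3 called genes per list; UGT75B2, AT4G34800 and AT4G34810 were named after their values were seen.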

Additional observations from a re-analysis of the deposited data

How the results depend on the processing

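Among the repeats of single-gene values in the AXR3-1 lines, 362 kept their direction and their side of the threshold, 12 newly passed it, 9 no longer did and 2 changed sign. Among those in the IAA, PEO-IAA and mock comparisons, read for size and direction alone, 249 moved by less than the spread between replicates, 2 moved by more and 1 changed sign; median-of-ratios scaling changed no call of the 7 genes. The changes of sign were AT1G05660 between PEO-IAA and mock (-0.03 to 0.40 without 1 library), and, for the heat-line effect minus the estradiol-line effect, AT1G05660 (-0.23 to 0.03) and AT5G58530 (-0.15 to 0.02). Genome-wide counts moved most. DESeq2 called 96 genes higher and 20 lower between IAA and mock, 174 and 64 between IAA and PEO-IAA, 2 and 21 between PEO-IAA and mock, 473 higher in XVE>>AXR3-1, 23 higher and 12 lower in HS::AXR3-1, 531 higher in the mean of the lines, and 44 higher and 11 lower in their difference. A block for the replicate number gave 111 higher and 22 lower between IAA and mock, 234 and 107 between IAA and PEO-IAA, 11 lower between PEO-IAA and mock, 828 and 661 in XVE>>AXR3-1, 912 and 655 in the mean, and 31 and 20 in the difference. In the heat experiment same-numbered libraries correlated by 0.09 for replicate 1, 0.45 for replicate 2 and 0.28 for replicate 3. The highest correlations with another number were 0.23, -0.02 and 0.18. There the block gave 63 genes higher and 23 lower in all, and called 1 of the 7, AT3G15115 (0.61 ± 0.10 SE, edgeR adjusted p = 0.0239). In the mean of the lines the block called 5 of the 7, beside the 912 genes called higher in all. Each experiment fitted alone gave 11 higher and 0 lower between IAA and mock and 0 higher in HS::AXR3-1, where dropping the low-count filter gave 2 higher.

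Leaving out 1 library at a time gave 6 to 39 genes higher and 0 to 8 lower between IAA and mock, 40 to 127 and 10 to 30 between IAA and PEO-IAA, 3 to 10 lower between PEO-IAA and mock, 106 to 367 higher and 138 to 331 lower in XVE>>AXR3-1, 0 to 13 and 0 to 11 in HS::AXR3-1, 155 to 367 and 173 to 361 in the mean, and 0 to 29 and 0 to 7 in the difference. Of the 7 genes, 1 to 6 were then called higher in XVE>>AXR3-1 and 4 to 6 in the mean, the upper value in both without the library labelled HS::AXR3-1 replicate 1. The cause of these shifts was not tested, beyond the fewer samples of the smaller fits. Between IAA and PEO-IAA the block called 7 of the 7 genes lower (107 genes in all), against 6 without it (26 genes in all). As this contrast chose the members, nothing is read from these counts. In the AXR3-1 lines the block changed no call of the 7 genes beside those named here and in the results. Precision is limited by 3 libraries per group and, for AT2G43890 and AT1G61840, by IAA libraries of as few as 17 and 10 reads.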
